A study of Mus musculus with 6 samples.

Results

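Resident liver macrophages were followed through 10 marker genes, which are Emr1 (now Adgre1), Marco, Mpeg1, C1qa, C1qb, C1qc, Clec4f, Cd5l, Vsig4 and Cd14. Every probe carrying one of these symbols was taken whatever its signal, which gave 14 of the 45281 probes, and 10 of the 28908 gene symbols, on each array. Probes of 1 gene are numbered by falling mean signal. The arrays were Illumina WG-6 bead arrays, hybridised with biotinylated cRNA made from liver RNA of male C57BL/6 mice on normal chow that had been fasted for 24 h. There were 3 Creb3l3 KO mice and 3 wild-type (WT) littermates, with 1 array for each mouse. Creb3l3 encodes CREBH, a membrane-anchored transcription factor of hepatocytes and the small intestine, so the comparison asks whether transcripts of another liver cell type differ when that factor is missing. The sources used here give neither the allele behind the knockout nor the age of the mice.

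Kupffer cells are the macrophages that sit in the liver sinusoids, where they take up bacteria, aged red cells and particles from portal blood. They bind their targets through scavenger receptors, lectins and complement receptors, and they are themselves the main liver source of the complement component C1q. In bulk liver RNA the transcripts of these genes come from a minority of cells, and fewer cells of the type cannot be told apart from less RNA per cell.

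The arrays were not equally bright. Of the knockout arrays, replicate 2 detected 15867 probes at a detection p under 0.05, replicate 1 detected 11846 and replicate 3 only 4302, against 15504 to 16224 on the WT arrays. Over all probes Pearson's r between knockout replicate 3 and any of the rest was 0.676 to 0.697, and no other pair of arrays was below 0.973. Probes are not independent replicates, and these values only describe the arrays. Differences are therefore given for 5 arrays without knockout replicate 3, normalized on their own, and for all 6. Creb3l3 itself had a log2 difference of -2.32 in the 5 arrays (adjusted p = 0.00271) and -2.72 in the 6 (adjusted p = 0.574), by limma as described next. The sources used here do not place its probe relative to the deleted part.

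Transcripts of 9 of the 10 genes were measurable, each with at least 1 probe detected on all 5 arrays other than knockout replicate 3. Detection in bulk liver does not show which cells the transcripts came from. Cd5l, a secreted scavenger protein of macrophages, was the exception. Its single probe was detected on 0 of 6 arrays, with deposited signals of 96.2, 88.5 and 85.7 in knockout replicates 1, 2 and 3 and 88.8, 90.0 and 84.9 in WT replicates 1, 2 and 3. Both groups lay at background, so no difference is given for it. The second Mpeg1 probe was also left untested, because it was detected only on knockout replicate 2. On knockout replicate 3 the detected probes were 2 of 14, those of C1qc and the first Mpeg1 probe. Of the 12 probes tested in the 5 arrays, 11 were detected on each of them, against 71.5% of all tested probes.

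Upstream sequence is shown for 4 of the 7 members for which RefSeq gave one. These are Marco, which had the largest difference, the neighbouring genes C1qb and C1qc, and Vsig4, a receptor whose groups overlapped. The start of the transcript lies just past the 3′ end of each 250-base run. Capitals mark GAGGAA, the core recognised by the macrophage factor PU.1, and TGACG, the short form of the cyclic AMP response element, of the type bound by CREB family factors, each on either strand.
Marco (GRCm38.p6 chr1:120505025-120505274, strand -): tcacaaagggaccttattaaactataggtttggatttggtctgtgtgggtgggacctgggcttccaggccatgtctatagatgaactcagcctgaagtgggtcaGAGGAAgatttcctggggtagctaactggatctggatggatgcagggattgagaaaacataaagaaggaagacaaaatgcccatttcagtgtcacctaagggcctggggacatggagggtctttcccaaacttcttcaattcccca
C1qb (GRCm38.p6 chr4:136886201-136886450, strand -): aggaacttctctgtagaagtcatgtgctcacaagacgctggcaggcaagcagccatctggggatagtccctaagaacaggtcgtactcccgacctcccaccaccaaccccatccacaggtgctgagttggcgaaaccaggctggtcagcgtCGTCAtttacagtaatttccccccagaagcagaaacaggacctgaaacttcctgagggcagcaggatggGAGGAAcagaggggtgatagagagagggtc
C1qc (GRCm38.p6 chr4:136892915-136893164, strand -): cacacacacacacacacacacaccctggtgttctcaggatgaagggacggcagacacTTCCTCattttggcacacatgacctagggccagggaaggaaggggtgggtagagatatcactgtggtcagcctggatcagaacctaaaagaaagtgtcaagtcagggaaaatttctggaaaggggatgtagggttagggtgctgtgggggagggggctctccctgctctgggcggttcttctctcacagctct
Vsig4 (GRCm38.p6 chrX:96293439-96293688, strand -): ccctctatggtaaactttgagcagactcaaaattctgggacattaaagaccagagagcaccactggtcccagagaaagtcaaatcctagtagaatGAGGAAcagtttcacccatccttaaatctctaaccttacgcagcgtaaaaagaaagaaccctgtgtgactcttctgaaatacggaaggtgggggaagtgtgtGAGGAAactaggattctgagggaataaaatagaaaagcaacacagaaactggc
GAGGAA was found once in Marco, C1qb and C1qc and at 2 places in Vsig4. TGACG was found only in C1qb among these 4 genes. RefSeq gave an upstream sequence for 7 of the members, and 5 of these held GAGGAA, against 23.3% of 32851 upstream sequences of that length. TGACG was present in 1 of the 7, against 17.8% of all. Of the members not shown, Mpeg1 and Clec4f held neither motif and Cd5l held GAGGAA. The motifs do not overlap in C1qb, and a match is only a run of letters, not a bound site.

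In the 5 arrays the macrophage markers were mostly slightly higher in Creb3l3 KO livers, and none passed the test. The log2 difference (knockout minus WT) was above 0 for 11 of the 12 tested probes, with a median of 0.26. Over all 14345 tested probes the median was -0.03, and 54.7% lay below 0, against 1 of the 12. The size ran from -0.16 for C1qa to 0.95 for Marco. With limma and Benjamini-Hochberg adjustment over all probes, 0 of the 12 were called at an adjusted p under 0.05, where 0.342% of all probes were called. The smallest adjusted p among them was 0.139, for Cd14. At an unadjusted p under 0.05 there were 4 of 12, all higher in the knockout, where the background was 4.66% of all probes higher and 7.47% lower. Both knockout arrays lay above all WT arrays for 5 of 12, against 12.9% of all probes, and below all of them for 0 of 12, against 16.4%.

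Across all 6 arrays that picture was not kept. The log2 difference was above 0 for 5 of 12 probes and the median was -0.06, beside -0.28 for all 14494 tested probes, of which 72.7% lay below 0. Again 0 of 12 were called, and 0% of all probes were, with 0 members and 3.85% of all probes at an unadjusted p under 0.05. The smallest adjusted p among the members was 0.653. The knockout arrays lay apart from the WT arrays for 0 of 12, against 3.99% of all probes on the higher side and 13.4% on the lower. On knockout replicate 3, 9 of the 12 lay below every WT array, against 72.8% of all probes.

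**Figure D1:**
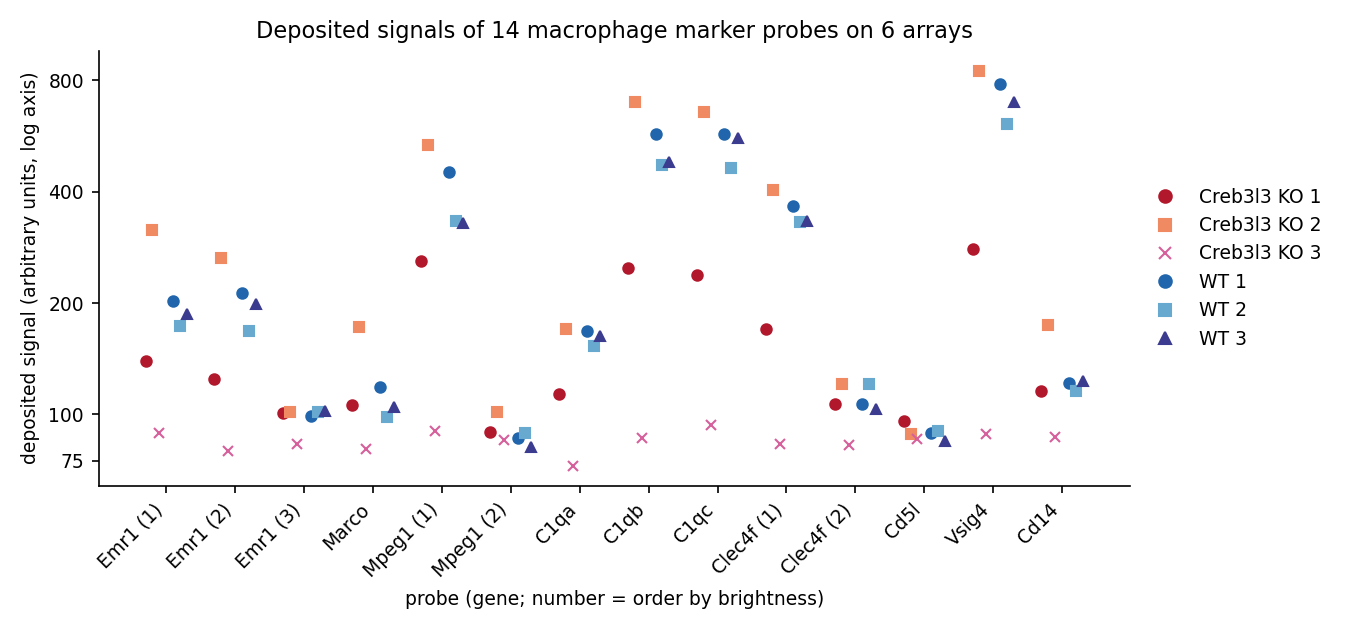
Deposited signals (arbitrary units, log axis) of the 14 marker probes, each point 1 array, knockout arrays left of WT arrays for each probe. Knockout replicate 3 lies between 72.6 and 93.7 for every probe, and knockout replicate 2 lies above the WT arrays for most of the probes that were detected.

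The direction on knockout replicate 1 differed between the deposited and the processed signals. The parts of background correction and of scaling in this were not tested. In the deposited signals, before any correction, that array lay below every WT array for 9 of the 12 tested probes, as it did for 85.9% of all probes. The same array after background correction and normalization lay above every WT array for 7 of the 12, against 30.8% of all. Knockout replicate 2, which was about as bright as the WT arrays, lay above every WT array for 11 of 12 in the deposited signals, against 43.9% of all probes. After normalization it did so for 8 of 12, against 31.3%. Knockout replicate 3 lay below every WT array for 12 of 12 in the deposited signals, as it did for 99.8% of all probes. In the median the members were no more scattered over the WT arrays than other probes, with an SD of 0.139 on the log2 scale. That of all tested probes was 0.143, with a 90th percentile of 0.295. Single members were more scattered, with an SD of 0.392 for the second Clec4f probe and 0.289 for Marco. Relative to the WT mean, the median normalized difference of the 12 probes was 0.25 on knockout replicate 1, where that of all probes was -0.08, and 0.26 on knockout replicate 2, where that of all probes was 0.01.

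**Figure D2:**
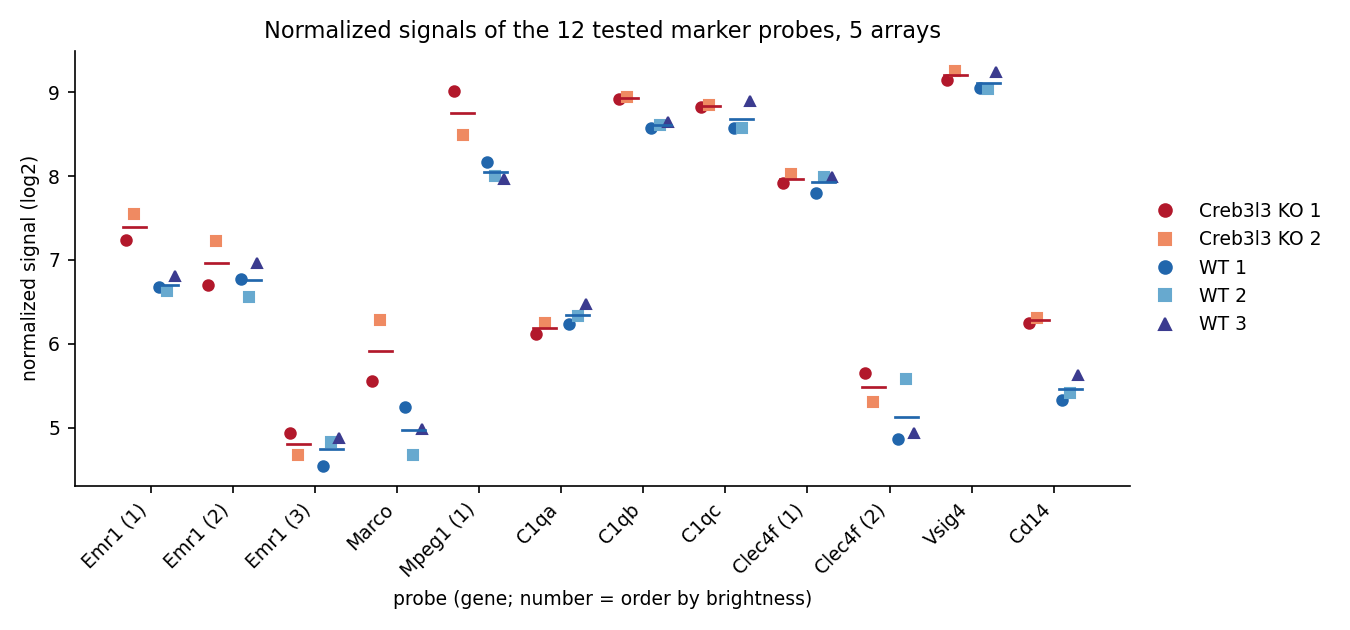
Normalized log2 signals of the 12 tested probes in the 5 arrays without knockout replicate 3, with the mean of each group as a bar, Creb3l3 KO left of WT. The groups are apart for Marco, Cd14, C1qb and the first probes of Emr1 and Mpeg1, and they overlap for the other 7 probes.

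Among the uptake receptors, Marco had the largest difference. It encodes a scavenger receptor with a collagen-like stalk that binds bacteria and particles. Its deposited signals were 106, 172 and 80.8 in knockout replicates 1, 2 and 3, against 119, 98.4 and 104 in WT replicates 1, 2 and 3. Only knockout replicate 2 was above the WT arrays on that scale. Normalized log2 signals were 5.55 and 6.28 in knockout replicates 1 and 2, against 5.25, 4.67 and 4.98 in WT. The groups did not overlap, and the log2 difference was 0.95 ± 0.26 (SE; 95% interval 0.35 to 1.55; limma adjusted p = 0.252), or 1.93-fold. With knockout replicate 1 left out it was 1.41, with knockout replicate 2 left out 0.56. Across all 6 arrays it was 0.37 (adjusted p = 0.703).

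Vsig4 encodes the complement receptor of the immunoglobulin family, which takes up particles coated with C3 fragments. It gave deposited signals of 279.6, 851 and 88.6 in knockout replicates 1, 2 and 3, against 781, 611 and 698 in WT replicates 1, 2 and 3. Normalized, the values were 9.15 and 9.26 in the knockout and 9.05, 9.04 and 9.24 in WT on the log2 scale. The ranges overlapped, with a log2 difference of 0.09 ± 0.16 (SE; 95% interval -0.27 to 0.46; adjusted p = 0.831). For Vsig4 the 6-array value was -0.76 (limma adjusted p = 0.653).

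Clec4f, a galactose-binding C-type lectin that in the mouse is a defining marker of Kupffer cells, likewise had overlapping groups. Its first probe had deposited signals of 170.3, 403 and 83.1 in the knockout arrays and 365, 331 and 334 in WT. The normalized log2 signals were 7.92 and 8.02 in knockout replicates 1 and 2, beside 7.79, 7.99 and 7.99 in WT. The log2 difference of 0.04 ± 0.16 (SE) had a 95% interval of -0.32 to 0.41 (adjusted p = 0.927). In the 6 arrays this probe stood at -1.09 (limma adjusted p = 0.653). The second Clec4f probe stood at 0.36 ± 0.25 in the 5 arrays (SE; adjusted p = 0.575) and at -0.03 in the 6 (adjusted p = 0.965). Its log2 signals in the 5 arrays were 5.65 and 5.31 in the knockout and 4.87, 5.58 and 4.93 in WT. Only knockout replicate 1 was above the WT arrays.

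Cd14 is the co-receptor that hands bacterial lipopolysaccharide to TLR4 and is also made by monocytes. Deposited signals were 115, 174 and 87.0 in knockout replicates 1, 2 and 3, against 122, 116 and 123 in WT replicates 1, 2 and 3. On knockout replicate 1 the deposited signal was thus just below the lowest WT array. Normalized log2 signals were 6.25 and 6.31 in the knockout, against 5.33, 5.41 and 5.63 in WT, and the groups were well apart. The mean was 6.28 ± 0.04 (SD, n = 2) in the knockout and 5.46 ± 0.16 (SD, n = 3) in WT. The log2 difference was 0.82 ± 0.17 (SE; 95% interval 0.44 to 1.20), or 1.77-fold, with an adjusted p of 0.139 that missed the threshold. With only knockout replicate 1 against the WT arrays the log2 difference was 0.77 (adjusted p = 0.0277). That fit takes its spread from the WT arrays alone and called 2234 of 13351 probes, among them 2 of the 11 member probes tested, so this call is not particular to Cd14. Across all 6 arrays it was 0.51 (adjusted p = 0.653).

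Emr1 encodes F4/80, the adhesion receptor long used to stain mouse macrophages, and its 3 probes differed from each other. The first probe had deposited signals of 139.8, 315 and 88.8 in the knockout arrays and 203, 174 and 187 in WT. Its normalized log2 signals were 7.24 and 7.55 in knockout replicates 1 and 2, against 6.67, 6.63 and 6.81 in WT, with no overlap. The log2 difference was 0.69 ± 0.17 (SE; 95% interval 0.30 to 1.09; adjusted p = 0.219), or 1.62-fold. The second probe stood at 0.20 ± 0.21 (SE; adjusted p = 0.72), with signals of 124, 265 and 79.4 in the knockout arrays and 213, 168 and 199 in WT. The third probe stood at 0.05 ± 0.18 (SE; adjusted p = 0.921), with signals of 101 on knockout replicates 1 and 2 and 98.8 to 102 in WT. The Emr1 difference thus rests on 1 of 3 probes. In the 6 arrays the probes stood at 0.44, -0.66 and -0.09 in the same order (limma adjusted p = 0.653, 0.666 and 0.826).

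Mpeg1 encodes perforin-2, a pore-forming protein of macrophages that attacks engulfed bacteria. Its first probe had deposited signals of 261, 534 and 90.2 in the knockout arrays, against 453, 333 and 329.9 in WT. After normalization knockout replicate 1 was the highest array, with log2 signals of 9.02 and 8.48 in the knockout and 8.16, 8.0 and 7.97 in WT. The log2 difference was 0.71 ± 0.20 (SE; 95% interval 0.25 to 1.17; adjusted p = 0.265), or 1.63-fold. Against the WT arrays, knockout replicate 1 alone gave 0.98 and knockout replicate 2 alone 0.44. Without knockout replicate 2 Mpeg1 was called (adjusted p = 0.013), in the fit that takes its spread from the WT arrays alone and called 2234 of 13351 probes. Across all 6 arrays the value was 0.32 (adjusted p = 0.678).

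**Figure D3:**
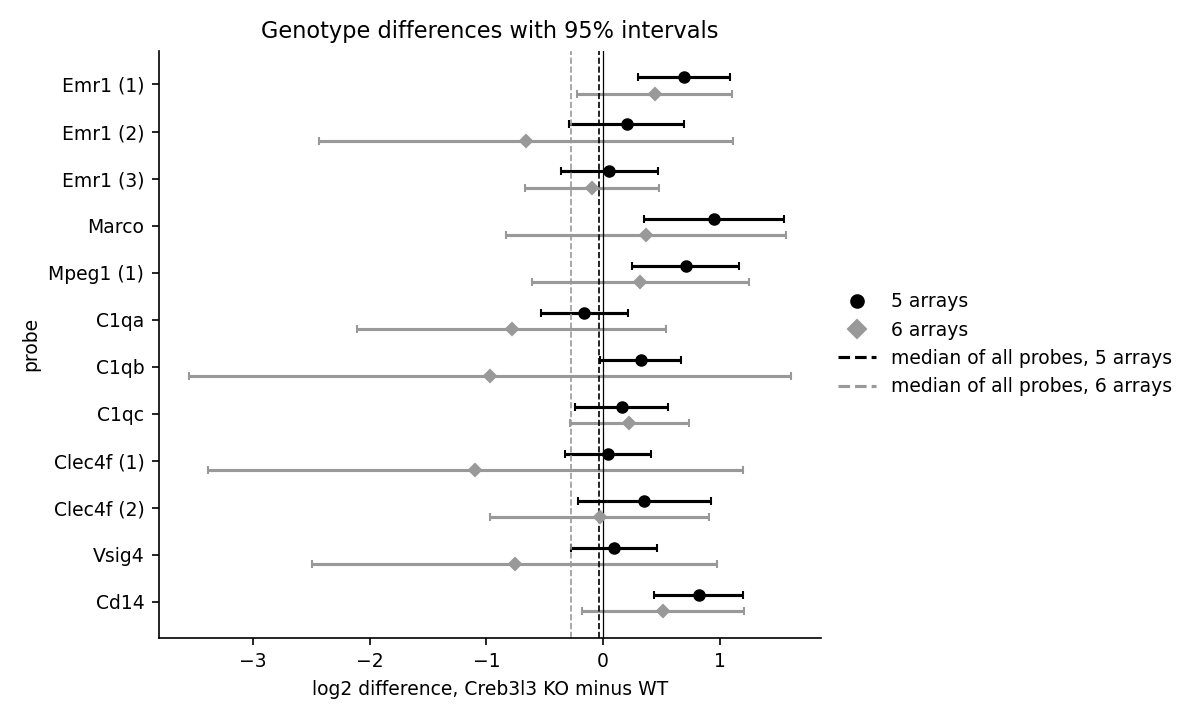
Log2 difference, Creb3l3 KO minus WT, of each tested probe with its 95% interval, for 5 arrays (black circles) and 6 arrays (grey diamonds). Dashed lines mark the medians of all tested probes, -0.03 and -0.28. The intervals of Marco, Cd14, Emr1 (1) and Mpeg1 (1) exclude 0 in the 5 arrays before adjustment, and with all 6 arrays every interval spans 0.

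The C1q chains assemble into the recognition part of the first complement component, built from A, B and C chains. Their genes lie side by side on mouse chromosome 4 in the order C1qb, C1qc, C1qa. C1qb had deposited signals of 249, 699 and 86.2 in knockout replicates 1, 2 and 3, against 574, 474 and 482 in WT replicates 1, 2 and 3. Its normalized log2 signals were tight, 8.92 and 8.95 in the knockout and 8.57, 8.61 and 8.64 in WT. The groups did not overlap, yet the log2 difference of 0.33 ± 0.15 (SE; 95% interval -0.02 to 0.67) was not called (adjusted p = 0.441). For C1qb the 6-array value was -0.97 (limma adjusted p = 0.665).

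C1qc gave deposited signals of 239, 658 and 93.7 in the knockout arrays and 574, 464 and 559 in WT. Normalized, it had 8.82 and 8.85 in the knockout, inside the WT spread of 8.57, 8.57 and 8.89, with a log2 difference of 0.16 ± 0.17 (SE; adjusted p = 0.726). C1qa was the only member below 0 in the 5 arrays. Deposited signals of C1qa were 113, 170.1 and 72.6 in the knockout arrays, against 168, 153 and 163 in WT. Its log2 difference was -0.16 ± 0.16 (SE; 95% interval -0.54 to 0.21; adjusted p = 0.706), with 6.12 and 6.25 in the knockout and 6.23, 6.33 and 6.47 in WT. The interval of C1qa overlaps those of C1qb and C1qc, and a difference between the chains was not tested. With all 6 arrays C1qc stood at 0.22 and C1qa at -0.78 (limma adjusted p = 0.653 for each).

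On knockout replicate 3 most members had no level above background. C1qb, Clec4f at its first probe, Vsig4 and Cd14 had detection p-values of 0.228, 0.5, 0.0855 and 0.167 there, so their normalized values on that array measure background, and the 6-array differences given for the members carry that limit. C1qc, which was detected there, stood 0.35 above the WT mean on the log2 scale. Its deposited signal was 93.7, beside the array's median of 83.7. The first Mpeg1 probe, also detected there, stood at -0.44 from the WT mean, with a deposited signal of 90.2.

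Other genes listed as macrophage genes gave a like picture in the 5 arrays, though which cells their transcripts came from was not tested. Of 22 further macrophage genes, 18 were tested in the 5 arrays. By limma 0 were called, 15 lay above 0, and 5 had an unadjusted p under 0.05, all higher. Over all 10037 tested genes 5238 lay below 0, and at an unadjusted p under 0.05 there were 497 higher and 705 lower. The median log2 difference of the 18 was 0.39, against -0.01 over all tested genes, each represented by its brightest probe, of which 7 were called higher and 27 lower. Spic, a transcription factor of red pulp and other iron-recycling macrophages, stood at 0.76 ± 0.21 (SE; adjusted p = 0.252). Fcer1g, the shared signalling chain of Fc receptors, stood at 0.56 ± 0.18 (SE; adjusted p = 0.322). Cfp, the complement stabiliser properdin, stood at 0.39 ± 0.15 (SE; adjusted p = 0.391). The direction was not shared by every gene of the list, and the haemoglobin scavenger receptor Cd163 stood at -0.29 ± 0.16 (SE; adjusted p = 0.507). Under median scaling of the 5 arrays the median of the 18 was -0.33, beside -0.42 for all tested probes. Across 6 arrays it was -0.14, beside -0.27 for all genes.

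Genes that work with the members were tested as 4 further lists, some of which share genes with the list just given. In the lipopolysaccharide pathway around CD14, 0 of 11 tested genes were called and 8 lay above 0, with a median of 0.09. Its leading gene was Ly96, the partner of TLR4 that binds lipopolysaccharide, at 0.49 ± 0.16 (SE; adjusted p = 0.324). The cytokine Il1b stood at 0.56 ± 0.36 (SE; adjusted p = 0.551), and Lbp, the serum protein that passes lipopolysaccharide to CD14, at 0.54 ± 0.40 (SE; adjusted p = 0.601). Lbp had deposited signals of 619.8 and 1885 in knockout replicates 1 and 2 and 2602, 788 and 848 in WT, so its WT arrays alone spanned more than the difference.

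Among the classical complement partners of C1q, which are mostly made by hepatocytes, 0 of 9 tested genes were called. Above 0 lay 4, with a median of -0.02. Relative to the WT mean the list median was 0.22 on knockout replicate 1 and -0.05 on knockout replicate 2. C4b stood at 0.22 ± 0.18 (SE; adjusted p = 0.634) and C4bp, a C4-binding inhibitor, at 0.29 ± 0.17 (SE; adjusted p = 0.499).

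In the scavenger and uptake receptors 0 of 10 were called and 8 lay above 0, with a median of 0.08. Relative to the WT mean the median of this list was 0.03 on knockout replicate 1 and -0.11 on knockout replicate 2. Timd4, which binds phosphatidylserine on dying cells, stood at 0.40 ± 0.22 (SE; adjusted p = 0.493) and Scarb1, the receptor of high-density lipoprotein, at -0.42 ± 0.24 (SE; adjusted p = 0.504). In the macrophage identity and growth factors 0 of 8 were called and 7 lay above 0, with a median of 0.16. Beside Spic, these included Zeb2, a zinc finger repressor, at 0.35 ± 0.23 (SE; adjusted p = 0.559) and Id3, an inhibitor of helix-loop-helix factors, at 0.22 ± 0.16 (SE; adjusted p = 0.596).

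**Figure D4:**
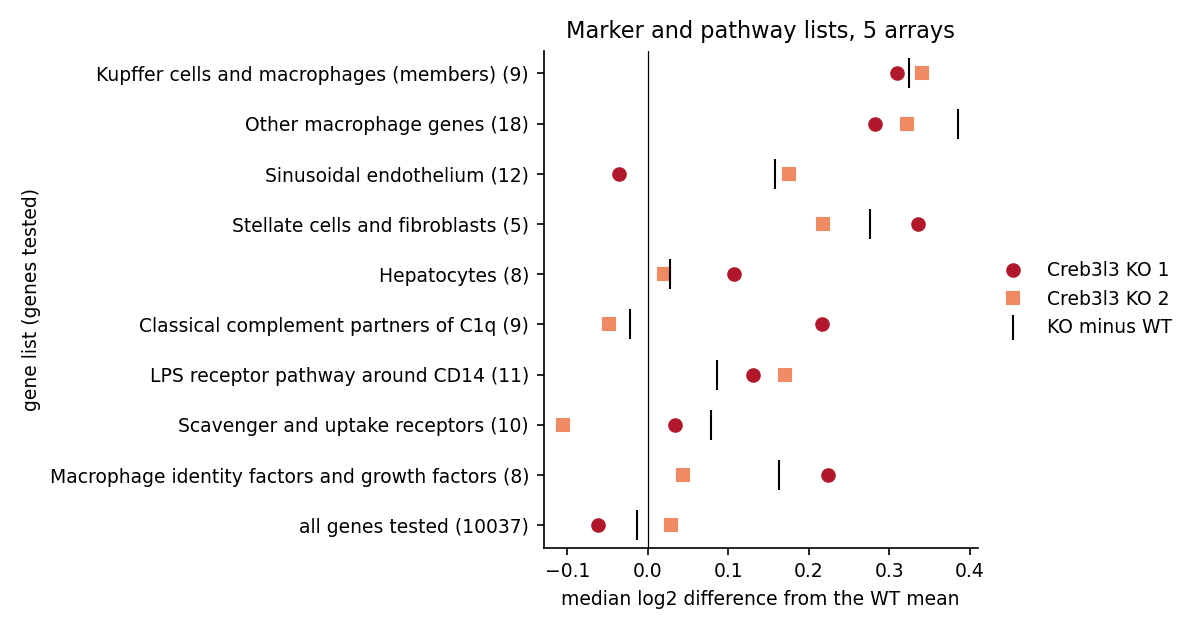
Median log2 difference from the WT mean of the tested genes in each list with at least 5 of them, for knockout replicate 1 (circles), knockout replicate 2 (squares) and the group difference (bars), in the 5 arrays. The members and the other macrophage genes lie at 0.28 to 0.39 on each measure, and all genes together at -0.06 to 0.03. The stellate cell list lies close to them, at 0.22 to 0.34, the endothelial list at -0.04 to 0.18 and the hepatocyte list at 0.02 to 0.11.

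Markers of other non-hepatocyte cells were set beside these values. Of 14 monocyte and neutrophil genes only S100a8 and S100a9, the subunits of calprotectin, were tested. S100a8 was 1.42 above the WT mean on knockout replicate 2 and -0.35 from it on knockout replicate 1, with a group difference of 0.53 ± 0.43 (SE; adjusted p = 0.638). S100a9 stood at 0.74 ± 0.26 (SE; adjusted p = 0.355), with 1.18 on knockout replicate 2 and 0.29 on knockout replicate 1. The summed deposited signal of the 12 genes of that list with a probe was 1008 to 1387 in the knockout arrays and 1123 to 1184 in WT, and 5 of them were detected nowhere. Their part in the values of Cd14 and Marco, which were also highest on knockout replicate 2, was not tested.

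Of the sinusoidal endothelial genes 12 were tested and 0 called, 7 above 0, with a median of 0.16. Lyve1, the hyaluronan receptor of these cells, stood at 0.64 ± 0.25 (SE; adjusted p = 0.391), Gpr182 at 0.46 ± 0.15 (SE; adjusted p = 0.334) and the lectin Clec4g at -0.42 ± 0.17 (SE; adjusted p = 0.393). Their summed deposited signal was 1207 to 5328 in the knockout arrays and 4575 to 5283 in WT. In the stellate cell list 0 of 5 were called, with a median of 0.28. Reln stood at -0.48 ± 0.18 (SE; adjusted p = 0.366), Rgs5 at 0.52 ± 0.24 (SE; adjusted p = 0.443) and Acta2 at 0.64 ± 0.31 (SE; adjusted p = 0.452). Acta2 was detected on knockout replicates 1 and 2 but on only 1 WT array, and its groups overlapped.

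Lymphocytes and cholangiocytes left few measurable genes. Of T and NK cell genes 2 were tested, Nkg7 at 0.50 ± 0.23 (SE; adjusted p = 0.442) and Cd3g at -0.00 ± 0.18 (SE; adjusted p = 0.998), of cholangiocyte genes 2, Sox9 at 0.36 ± 0.23 (SE; adjusted p = 0.539) and Spp1 at 0.18 ± 0.29 (SE; adjusted p = 0.814), and of B cell genes 0. In the hepatocyte list 0 of 8 were called and the median was 0.03. Cyp2e1 stood at -0.47 ± 0.15 (SE; adjusted p = 0.333), Ass1 at 0.46 ± 0.27 (SE; adjusted p = 0.508) and Tdo2 at 0.36 ± 0.21 (SE; adjusted p = 0.508).

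Outside all lists, the genes whose profile over the 5 arrays was most like the mean profile of the 9 detected members were Ranbp1, Epm2aip1, Tmsb4x, Tax1bp3 and Rps6. Likeness was the root mean square difference between mean-centred log2 signals, taken over 7472 genes detected on all 5 arrays. It was 0.013 for Ranbp1 and 0.042 for Rps6, beside a median of 0.26 over all these genes. Among the members themselves C1qb was closest to the mean profile, at 0.06, and Marco farthest, at 0.38. With so few arrays such matches are a description of these arrays only.

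The scaling of the arrays set the sign of many of these small differences. When each array was scaled to its median in place of quantile normalization, the median of all tested probes in the 5 arrays moved to -0.42 and that of the 12 member probes to -0.21. Only 4 of 12 then lay above 0, those of Marco, Cd14, the first Emr1 probe and the second Clec4f probe, while 8 of 12 lay above the median of all probes. Vsig4 stood at -0.65, the first Clec4f probe at -0.63 and C1qc at -0.58 under that scaling. Under every other alternative tried in the 5 arrays the median of the member probes was above 0, between 0.12 and 0.33, and above that of all probes.

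**Figure D5:**
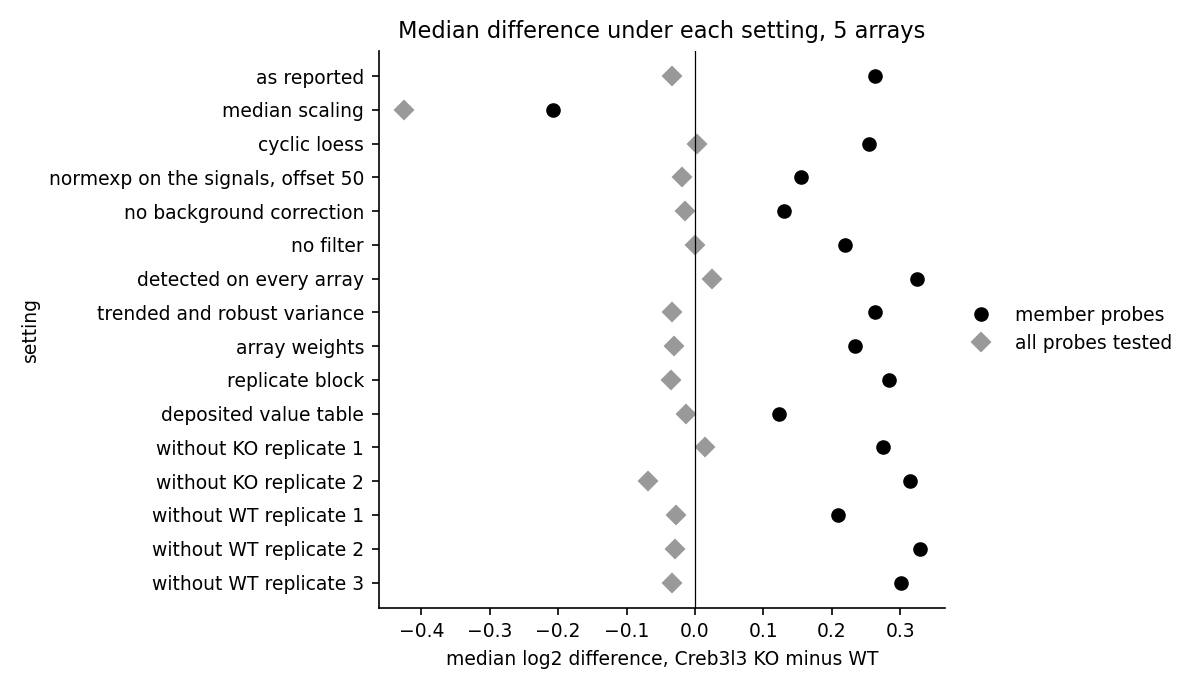
Median log2 difference, Creb3l3 KO minus WT, of the tested member probes (black circles) and of all tested probes (grey diamonds) under each way of processing the 5 arrays. Under median scaling both medians are below 0, at -0.21 and -0.42, and under every setting shown the members lie to the right of all probes.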

How the data were processed

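Liver RNA of 3 Creb3l3 KO and 3 WT mice was measured on 6 arrays, grouped by sample title. Each deposited array table gives an average bead signal per probe, an intensity on a linear scale that is neither normalized nor background-subtracted, and a detection p-value per probe, per the file headers. BeadStudio 3 is the tool named by the submitters' processing notes. The deposited value table of the series holds intensities normalized by the authors by a method not given in the sources used here. Set against the arrays it was linear, uncentred and matched quantile-normalized signals (column medians 91.6 to 91.7), except that its column for WT replicate 2 matched the array of WT replicate 3 and the reverse, and it served only as an alternative. Which source has these labels right is not settled, so the numbers of WT replicates 2 and 3 follow the array tables and may be exchanged throughout, which leaves the genotype groups as they are.

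Signals were processed in limma 3.58.1 (R 4.3.3) with neqc, that is normexp background correction (offset 16, its negative controls being derived from detection p-values), then quantile normalization, then log2. A probe was tested if 3 or more arrays detected it at p under 0.05. Tests used lmFit and eBayes with genotype as the only term, two-sided, with Benjamini-Hochberg adjustment over all tested probes. The fit was tested on simulated data in which all arrays were drawn from the WT mean and spread, apart from set differences. A dim or unevenly scaled array was not simulated. The number of arrays limits the precision, and separate mice are the replicates.

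Members and gene lists were chosen with earlier results of these data known. Named were all members, the 3 genes of each other list with the smallest p, and the 5 genes of the most similar profile. A gene named by this rule is not reported here. Symbols were updated through RefSeq's gene table of GRCm38.p6, where 27740 probes carried a current symbol, 8037 were renamed and 9504 kept an unmatched name. Upstream sequences are RefSeq's, of the same assembly. Other settings tried were median scaling, cyclic loess, other background corrections, no filter, detection on every array, a trended and robust variance, array weights, a replicate block and leaving out each mouse. Figures were drawn with matplotlib 3.10.9. No batch is labelled.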

Additional observations from a re-analysis of the deposited data

How the results depend on the processing

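The number of member probes called was 0 in the 5 and in the 6 arrays, and it became 4 with array weights in the 6 arrays (Emr1, Marco, Mpeg1 and Cd14) and 0 to 2 when each of the 5 mice was left out, the 2 being Mpeg1 and Cd14, of 11 tested, without knockout replicate 2. Those fits called 2832 of 14494 and 2234 of 13351 probes in all, so the calls are not particular to the members. The count of all probes called in the 5 arrays was 49, and it was 4 under median scaling, 83 under cyclic loess, 109 with normexp on the signals, 85 with no background correction, 1 with no filter, 122 with a trended and robust variance, 32 with array weights, 83 from the deposited value table and 9 to 2234 with 1 mouse left out. In the 6 arrays it was 0, and it was 3 under cyclic loess, 1 with probes detected on every array, 5 with a trended and robust variance, 2832 with array weights and 0 to 49 with 1 mouse left out. Member probes above 0 numbered 4 of 12 under median scaling in the 5 arrays. With 1 mouse left out they numbered 8 to 10, of 11 or 12 tested. In the 6 arrays they numbered 1 under median scaling, 8 under cyclic loess and 9 with array weights, each of 12. With probes detected on every array only 2 member probes were tested, and both lay above 0. Leaving out 1 mouse gave 4 to 11, of 11 or 12 tested. In the 5 arrays, member probes with the knockout arrays above all WT arrays numbered 0 of 12 under median scaling. With 1 mouse left out they numbered 5 to 8, of 11 or 12 tested. In the 6 arrays the counts were 4 under cyclic loess and 0 to 5 with 1 mouse left out. Where a knockout mouse is left out of the 5 arrays, only 1 knockout array has to lie above the WT arrays. Knockout replicate 1 did so for 30.8% of all tested probes and knockout replicate 2 for 31.3%, against 12.9% for both. Shares of all probes under the other settings were not taken. The median of the other macrophage genes was -0.33 under median scaling, where that of all tested probes was -0.42. It was 0.22 with normexp on the signals, 0.17 with no background correction, 0.15 from the deposited value table and 0.28 to 0.36 with 1 mouse left out.

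Signs turned under median scaling in the 5 arrays for Emr1 (-0.33 and -0.087 at its second and its last probe), Mpeg1 (-0.024), C1qb (-0.41), C1qc (-0.58), Clec4f (-0.63), Vsig4 (-0.65), Fcer1g (-0.11), Cfp (-0.37), Lyve1 (-0.018), Gpr182 (-0.10), Sox9 (-0.28), Spp1 (-0.52), Tdo2 (-0.38), C4b (-0.51), C4bp (-0.45), Lbp (-0.18), Timd4 (-0.035), Id3 (-0.25) and Zeb2 (-0.086). Cd3g, near 0, turned to 0.037 under cyclic loess, 0.0086 with normexp on the signals, 0.0054 with no background correction, 0.055 with the replicate block and 0.0053 from the deposited value table. In the 6 arrays median scaling turned the first Emr1 probe (-0.69), the first Mpeg1 probe (-1.21), C1qc (-1.73) and Cd14 (-0.084). Cyclic loess turned the second Emr1 probe (0.14), C1qb (0.11) and the second Clec4f probe (0.23). Array weights turned the last Emr1 probe (0.12), C1qb (0.27), the second Clec4f probe (0.49) and Vsig4 (0.0015). With 1 mouse left out in the 5 arrays, ranges that reached below 0 included -0.060 to 0.47 for the second Emr1 probe. The last Emr1 probe, tested only without knockout replicate 1 or WT replicate 1, ran from -0.093 to -0.044. Other such ranges were -0.021 to 0.10 for the first Clec4f probe, -0.34 to 1.46 for S100a8 and -0.12 to 0.34 for Spp1. Cd3g crossed 0 from the other side, at -0.13 to 0.068. In the 6 arrays ranges that reached below 0 were -1.14 to 0.20 and -0.24 to 0.055 for the second and last Emr1 probes. They were -0.052 to 0.95 for Marco, -0.0011 to 0.71 for the first Mpeg1 probe and -1.66 to 0.33 for C1qb. The first and second Clec4f probes had -1.71 to 0.045 and -0.31 to 0.36, and Vsig4 had -1.2 to 0.094. The cause was not tested.

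Nothing but the number in the titles links same-numbered mice. Their deviations from the group means correlated at -0.05, -0.05 and 0.04 in the 6 arrays. In the 5 arrays the values were -0.13 for replicate 1 and -0.13 for replicate 2. Deviations within a group sum to 0, so this check cannot settle whether the mice were paired. The numbers of WT replicates 2 and 3 differ between the deposited sources, which touches this check and the block. With the replicate block, 47 probes were called in the 5 arrays and 0 in the 6, with 0 member probes in each. Signals near background limit Marco, Cd14, C1qa and the last Emr1, Mpeg1 and Clec4f probes. Among genes of the other lists they limit Spic, Rgs5, Acta2, Nkg7 and Cd3g, among others.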
